A study of Mus musculus with 11 samples.

Results

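The genes described here encode the Wnt ligands, their Frizzled and LRP receptors, the secreted antagonists of the pathway and the proteins that carry the signal to the nucleus. They were chosen by gene symbol: every probe set annotated to 1 gene whose symbol was that of a Wnt, Fzd, Dkk, Sfrp, Dvl or Tcf7 family gene, or Wif1, Frzb, Lrp5, Lrp6, Axin1, Axin2, Ctnnb1 or Lef1. The rule found 77 of 20380 single-gene probe sets, which stand for 49 of 12393 genes. Their RNA was measured in sympathetic ganglia of male C57BL mice aged 78 weeks on 11 Affymetrix arrays, 6 from apoE-/- animals, called Apoe-deficient below, and 5 from wild-type animals. All mice came from the Jackson Laboratory and were kept on normal chow, and the ganglia were cut from frozen tissue by laser capture. The labels do not say how many animals stand behind the arrays; where several came from the same mouse, every p-value given here is too small, and where each came from its own mouse, p-values measure the groups against the spread between samples, which may be technical in part.

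Wnt proteins are secreted lipid-modified ligands that bind a Frizzled receptor together with the co-receptor LRP5 or LRP6. In the branch that runs through beta-catenin, the occupied receptors recruit Dishevelled and Axin, the complex that destroys beta-catenin is held back, and beta-catenin then enters the nucleus and works with DNA-binding proteins of the TCF/LEF family. Dickkopf proteins such as DKK1 and DKK2 bind LRP5 and LRP6, while the secreted Frizzled-related proteins and WIF1 bind the Wnt ligands themselves. Other branches act on cell polarity and calcium, and in sympathetic neurons Wnt5a and Frizzled 3 are known for parts in axon growth.

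The arrays bore out their labels. Apoe, the deleted gene, had signals of 7.2 to 268.2 in the 6 Apoe-deficient arrays and of 11830.3 to 19649.2 in the 5 wild-type arrays, a log2 difference of -6.75 (SE 0.44, limma adjusted p = 1.88e-06; exact two-sided permutation p = 0.0022, the smallest that 462 splits can give). Noradrenergic neuron genes, which define the tissue, were present: 8 of the 10 listed genes had a probe set, all 8 passed the filter on low values, 0 of them passed the test, and their summed signal was 35698 to 59057 in Apoe-deficient and 46599 to 64457 in wild-type arrays. Arrays also differed in a technical measure. The mean log2 signal of the 9 hybridisation control probe sets split them into a low level (Apoe-deficient replicates 2, 3 and 4), a middle level (wild-type replicates 3, 4 and 5 with Apoe-deficient replicate 5) and a high level (wild-type replicates 1 and 2 with Apoe-deficient replicates 1 and 6). The low level therefore holds 1 genotype only, and differences without it are given for some genes.

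Of the 49 genes, 22 passed the filter on low values and were tested, and 27 did not pass it. The filter kept a probe set whose normalised log2 value was above 6.98 in at least 5 arrays, which is the 40th percentile over the table and equals a signal of about 110. Of the 22 tested genes 1 was lower and 0 were higher in Apoe-deficient ganglia at a limma adjusted p under 0.05, that is 4.55%, against 1.93% of the 8433 genes tested (0.676% lower and 1.26% higher). With a single called gene, known from earlier results, this share is no result about the pathway as a whole. At an unadjusted p under 0.05 the same 1 of 22 passed, against 20.3% of all tested genes (7.92% higher and 12.3% lower). Differences lay above 0 for 10 of the 22 and for 43.0% of all. The median log2 difference of the 22 was -0.04, the same as over all tested genes, and their median absolute difference was 0.14 against 0.17. In none of the 22 did the groups separate without overlap, which 2.96% of all tested genes did (1.46% higher and 1.51% lower).

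**Figure D1:**
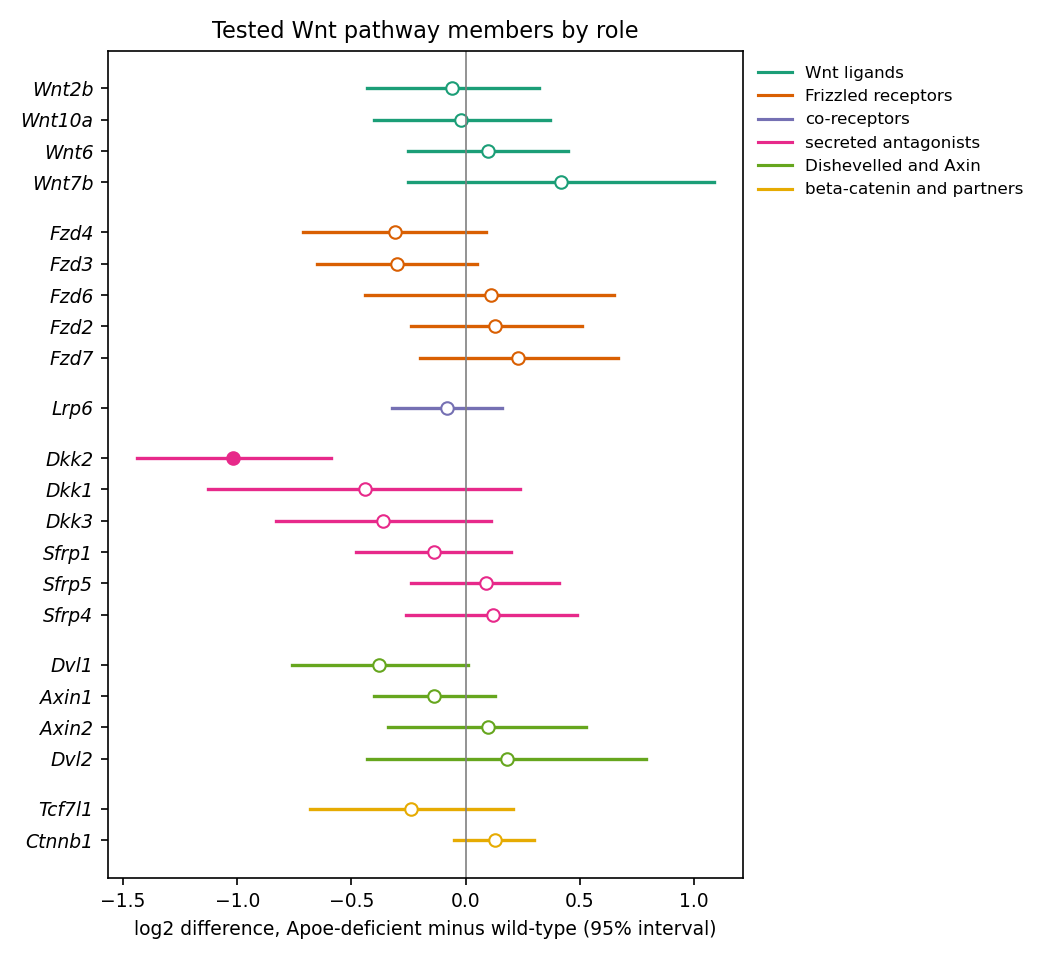
Log2 difference on the log2(signal + 16) scale, Apoe-deficient minus wild-type, of the 22 tested genes, grouped by role; bars are 95% intervals of the limma fit and a filled point marks an adjusted p under 0.05. Dkk2 at -1.02 is the only filled point, and the intervals of the other 21 all reach across 0.

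Dkk2, which encodes a secreted Dickkopf protein that binds LRP5 and LRP6, was the gene that fell. Its change was already known from an earlier account of these data, so its call is no independent finding. Its signal was 629.5, 618.4, 317.3, 462.3 and 509.3 in wild-type replicates 1 to 5 and 206.3, 354.0, 213.7, 156.1, 261.0 and 277.1 in Apoe-deficient replicates 1 to 6. Of the 6 Apoe-deficient arrays 5 lay below the lowest wild-type array, and the overlap came from Apoe-deficient replicate 2 at 354.0 and wild-type replicate 3 at 317.3. The mean was 245 ± 68.6 (SD, n = 6) in Apoe-deficient and 507 ± 128 (SD, n = 5) in wild-type ganglia. On the log2(signal + 16) scale the difference was -1.02 (SE 0.20, 95% interval -1.44 to -0.59, limma adjusted p = 0.0185), or 2.02-fold lower, and Dkk2 held place 65 among all tested genes ordered by p. The gene has 1 probe set, so no second measurement of it exists on the array.

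The Dkk2 difference kept its sign, while its call did not always hold. With each array left out in turn it ran from -1.18 to -0.91, and the call was lost without wild-type replicate 1 (adjusted p = 0.0627), replicate 2 (0.0628) or replicate 5 (0.0504). Within the high control level, where 2 Apoe-deficient arrays stood against 2 wild-type arrays, the difference was -1.36 (limma adjusted p = 0.185). Within the middle level, 1 Apoe-deficient array against 3 wild-type arrays, it was -0.69 with no test. Without the 3 low-level arrays it was -0.99 (adjusted p = 0.107), and with the level as a block -1.07 (adjusted p = 0.109). The low level holds Apoe-deficient arrays only, so control level and genotype cannot be fully told apart. The part of the control level in the Dkk2 difference was not tested.

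**Figure D2:**
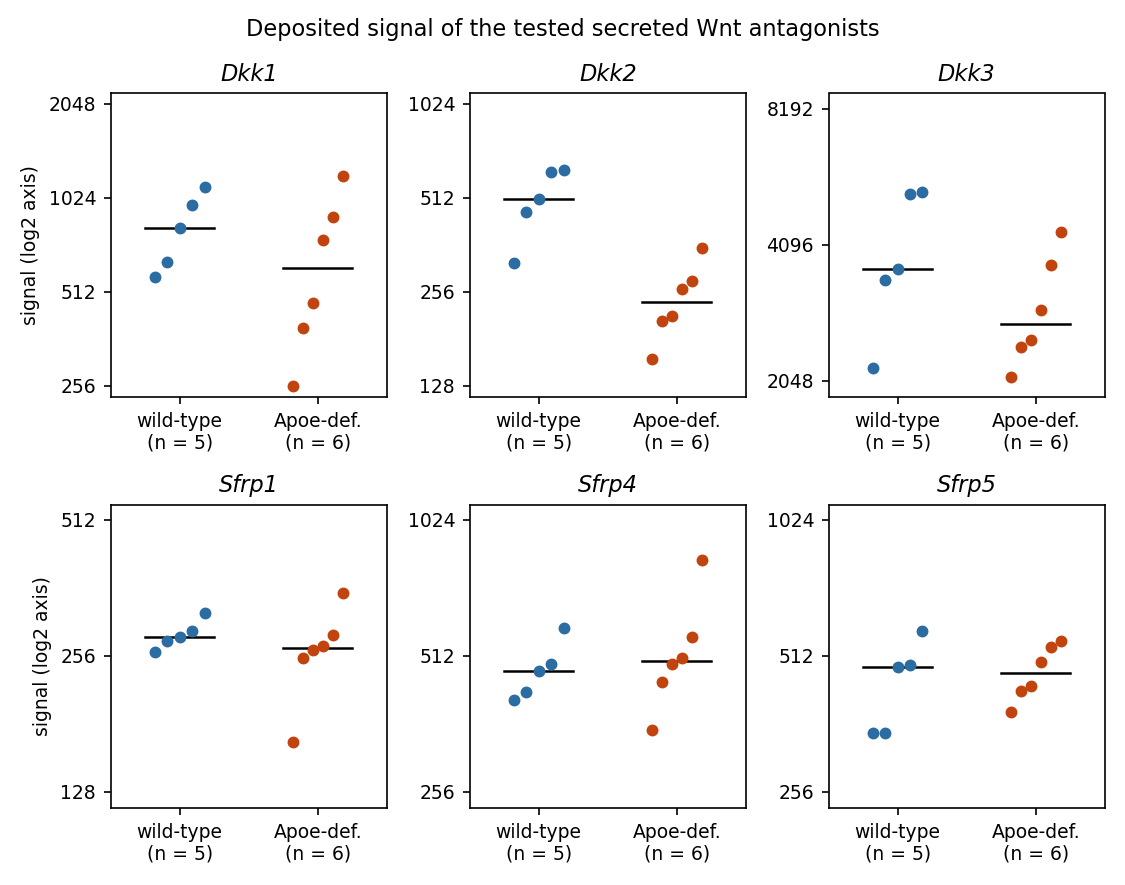
Deposited signal, on a log2 axis, of the 6 tested secreted antagonists in each array; points are arrays (5 wild-type, 6 Apoe-deficient) and lines are group medians. In the Dkk2 panel the wild-type arrays span 317.3 to 629.5 and the Apoe-deficient arrays 156.1 to 354.0, while the groups overlap widely in the other panels.

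Markers of other cells moved between the same groups of arrays. Here a marker rose or fell where its limma adjusted p was under 0.05, as 1.26% (higher) and 0.676% (lower) of all tested genes did. Of 7 macrophage markers 6 rose, Csf1r at an adjusted p of 0.0498, and Adgre1 did not (difference 0.07). The summed signal of the 7 was 6826 to 9071 in Apoe-deficient and 4068 to 5452 in wild-type arrays. Of 3 tested B and plasma cell markers 2 rose, with sums of 11891 to 65007 and 493 to 16749. Of 3 tested sensory neuron markers 2 fell, Isl2 and Avil, with overlapping sums of 10842 to 18524 and 15252 to 19747, while the sensory neuron genes Scn10a and Tlx3 never exceeded signals of 27.0 and 93.8. Fibroblast markers (0 of 7 called, median difference 0.54), endothelial markers (0 of 6, 0.24), smooth muscle and pericyte markers (0 of 6, 0.10), satellite glia and Schwann cell markers (0 of 5, 0.06), white adipocyte markers (0 of 4, -0.64) and brown adipocyte markers (0 of 4, -1.0) had no member past the threshold. The part of any of these in the Dkk2 difference was not tested. In bulk tissue such as this, fewer cells of a type and less RNA per cell cannot be told apart.

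The other antagonists did not pass the test. Dkk1, whose protein blocks LRP5 and LRP6, varied widely: its signal was 571.3, 973.6, 1113.8, 817.2 and 640.2 in the wild-type arrays and ran from 256.4 over a median of 612.1 to 1205.9 in the Apoe-deficient arrays. Both the lowest and the highest of the 11 arrays were Apoe-deficient, replicates 1 and 6, and the difference was -0.44 (SE 0.32, 95% interval -1.13 to 0.24, adjusted p = 0.436). Dkk3, a more distant member of the Dickkopf family, had wild-type signals of 5346.4, 5299.1, 2189.1, 3427.4 and 3620.1 and Apoe-deficient signals from 2085.4 over 2734.3 to 4361.1. The groups overlapped over most of their range, and the difference was -0.36 (SE 0.22, adjusted p = 0.364). Without the 3 low-level arrays it was -0.19. A second Dkk3 probe set above the filter gave 0.04 (SE 0.14).

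Sfrp1, which encodes a secreted Frizzled-related protein, was read differently by its probe sets. The probe set that represents the gene had signals of 318.4, 290.2, 281.6, 275.3 and 261.4 in the wild-type arrays and from 165.3 over 265.6 to 352.9 in the Apoe-deficient arrays, a difference of -0.14 (SE 0.16, adjusted p = 0.637). Of its 3 other probe sets, one above the filter gave -0.08 (SE 0.17). Another above the filter gave 0.66 (SE 0.27, adjusted p = 0.211 where each probe set was tested by itself), with signals of 115.5 to 219.0 in wild-type and 158.0 to 477.2 in Apoe-deficient arrays, and the last, below the filter, gave 0.73. Which probe set is read therefore sets the sign of the Sfrp1 difference, and no direction can be given for this gene. Sfrp4 and Sfrp5, of the same family, differed by 0.12 and 0.09, and the antagonist genes Dkk4, Frzb, Sfrp2 and Wif1 lay below the filter, with signals of 0.9 to 146.6 over all arrays.

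To set the promoters of the related genes Dkk1 and Dkk2 side by side, the 250 bases before the transcript start are shown. Dkk1 was the other Dickkopf gene with a difference below -0.4, which did not pass the test. It was also taken because its promoter holds matches to the core letters of the TCF/LEF motif. Sequences are from RefSeq on GRCm38.p6, 5′ to 3′ on the strand of the gene, and capitals mark each match to CTTTGA on either strand. The Dkk2 window lies at chr3:132085042-132085291 on the plus strand and the Dkk1 window at chr19:30549497-30549746 on the minus strand.
Dkk2: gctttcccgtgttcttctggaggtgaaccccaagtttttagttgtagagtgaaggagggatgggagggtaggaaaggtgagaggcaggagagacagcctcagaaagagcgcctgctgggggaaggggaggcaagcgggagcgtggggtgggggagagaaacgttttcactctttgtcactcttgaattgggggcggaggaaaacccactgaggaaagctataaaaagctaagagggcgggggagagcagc
Dkk1: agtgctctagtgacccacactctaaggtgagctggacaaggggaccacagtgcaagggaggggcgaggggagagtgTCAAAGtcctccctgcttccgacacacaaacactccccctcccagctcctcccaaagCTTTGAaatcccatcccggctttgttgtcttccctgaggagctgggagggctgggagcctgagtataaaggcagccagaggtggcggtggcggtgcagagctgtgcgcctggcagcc
The Dkk1 window holds 2 matches and the Dkk2 window 0. Since Dkk1 was taken in part for its matches, this contrast is no result. Other spellings of the motif were not searched. A promoter was found for 34 of the 49 genes, and of their 42 windows 14.3% held a match, against 13.8% of all 32851 windows of this length. These letters say nothing on whether a TCF/LEF protein binds there.

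Among the ligands, most genes were at low signal in these ganglia. Of 19 Wnt genes 4 passed the filter, Wnt2b, Wnt6, Wnt7b and Wnt10a, and 0 of the 4 passed the test, with differences of -0.06 to 0.42. Wnt7b showed the largest: its wild-type signals were 73.2, 275.3, 188.4, 201.7 and 104.6 and its Apoe-deficient signals ran from 137.9 over 178.6 to 372.8. The medians of 188.4 and 178.6 lay the other way from the means, and the difference of 0.42 (SE 0.31, adjusted p = 0.452) had a 95% interval of -0.25 to 1.09. The other Wnt7b probe set, below the filter, gave 0.03. Wnt6 had signals of 381.1 to 434.7 in the wild-type arrays and 363.0 to 749.7 in the Apoe-deficient arrays, where replicate 1 stood above all others. The 15 ligand genes below the filter, Wnt5a among them, had signals of 1.2 to 153.9, and of these low values no difference is read.

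Receptor genes were spread on both sides of 0, and 0 of 5 tested Frizzled genes passed. Fzd3, the receptor named above for axon growth, had wild-type signals of 157.6, 129.0, 181.4, 107.0 and 148.5 and Apoe-deficient signals from 90.8 over 106.8 to 146.1. The groups overlapped, and the difference was -0.30 (SE 0.16, adjusted p = 0.312). Of the Apoe-deficient arrays only replicates 2 and 4 lay above the filter value of 6.98 (7.37 and 7.16), while every wild-type array did. The 3 other Fzd3 probe sets, all below the filter, gave -0.18, -0.12 and 0.18. Fzd4, a receptor used by endothelial cells for the ligand Norrin, had wild-type signals of 195.6, 257.0, 336.7, 312.1 and 277.3 and Apoe-deficient signals from 145.0 over 212.8 to 307.0, a difference of -0.31 (SE 0.19, adjusted p = 0.355). Without the 3 low-level arrays it was -0.11, and within the high control level it turned to 0.34. The other Fzd4 probe set, below the filter, gave 0.07.

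Fzd7 had wild-type signals of 195.8, 177.0, 146.7, 177.7 and 155.4 and Apoe-deficient signals from 112.6 over 223.9 to 257.6. Apoe-deficient replicates 2, 3 and 4, the low control level, were its 3 highest arrays. The difference was 0.23 (SE 0.20, adjusted p = 0.531) with all arrays and -0.05 without those 3. The other Fzd7 probe set, below the filter, gave -0.16. Fzd2 and Fzd6 differed by 0.13 and 0.11, and Fzd1, Fzd5, Fzd8 and Fzd9 lay below the filter at signals of 19.0 to 128.9. Of the co-receptors, Lrp6 was among the steadier members, with wild-type signals of 513.2, 522.2, 465.5, 394.7 and 494.4 and Apoe-deficient signals from 379.2 over 459.5 to 518.3. Its difference was -0.08 (SE 0.11, 95% interval -0.32 to 0.16, adjusted p = 0.706). A second Lrp6 probe set, below the filter, gave 0.49. Lrp5 never exceeded a signal of 36.9.

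Inside the cell, Dvl1, which encodes a Dishevelled protein, came next to Dkk2 in the order of p. Its wild-type signals were 2331.2, 2379.1, 2084.4, 1625.8 and 1978.2 and its Apoe-deficient signals ran from 1231.1 over 1572.1 to 2193.7. Its 3 lowest arrays were Apoe-deficient replicates 2, 3 and 4, while Apoe-deficient replicates 1 and 6 lay among the wild-type values, and the difference was -0.38 (SE 0.18, 95% interval -0.76 to 0.01, adjusted p = 0.259). A second probe set gave -0.30 (SE 0.15). Without the 3 low-level arrays the difference came to 0.00 (adjusted p = 0.995), and within the high control level it was -0.12.

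Axin1 encodes the scaffold of the complex that destroys beta-catenin. It had wild-type signals of 249.3, 215.1, 291.7, 225.6 and 232.2 and Apoe-deficient signals from 168.0 over 224.0 to 247.3, and the difference was -0.14 (SE 0.12, adjusted p = 0.552). Its other probe set, below the filter, gave 0.53. Axin2, a feedback inhibitor widely used as a reporter of beta-catenin signalling, had signals of 129.8 to 254.1 in wild-type and 121.5 to 311.6 in Apoe-deficient arrays. Its difference was 0.10 (SE 0.20, 95% interval -0.34 to 0.53, adjusted p = 0.812), and the groups overlapped throughout. The other Axin2 probe set, below the filter, gave 0.4.

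Ctnnb1, the gene of beta-catenin, was measured by 3 probe sets above the filter. The brightest, which represents the gene, had wild-type signals of 5177.0, 4506.2, 4434.1, 4672.5 and 4831.4 and Apoe-deficient signals from 4535.4 over 5073.1 to 5488.8. The difference was small and did not pass (0.13, SE 0.08, 95% interval -0.05 to 0.30, adjusted p = 0.397). The other probe sets gave 0.24 (SE 0.12, adjusted p = 0.295) and 0.67 (SE 0.24, adjusted p = 0.162) where each was tested by itself, so all 3 lay above 0 and none passed. Tcf7l1, a TCF/LEF family gene that mostly represses, had wild-type signals of 300.9, 231.1, 230.7, 155.3 and 230.2 and Apoe-deficient signals from 134.2 over 178.5 to 334.9. The highest and the lowest array were both Apoe-deficient, and the difference was -0.24 (SE 0.21, adjusted p = 0.537). The other Tcf7l1 probe set, below the filter, gave 0.27. Lef1 and Tcf7l2 lay below the filter at 1.6 to 106.1.

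**Figure D3:**
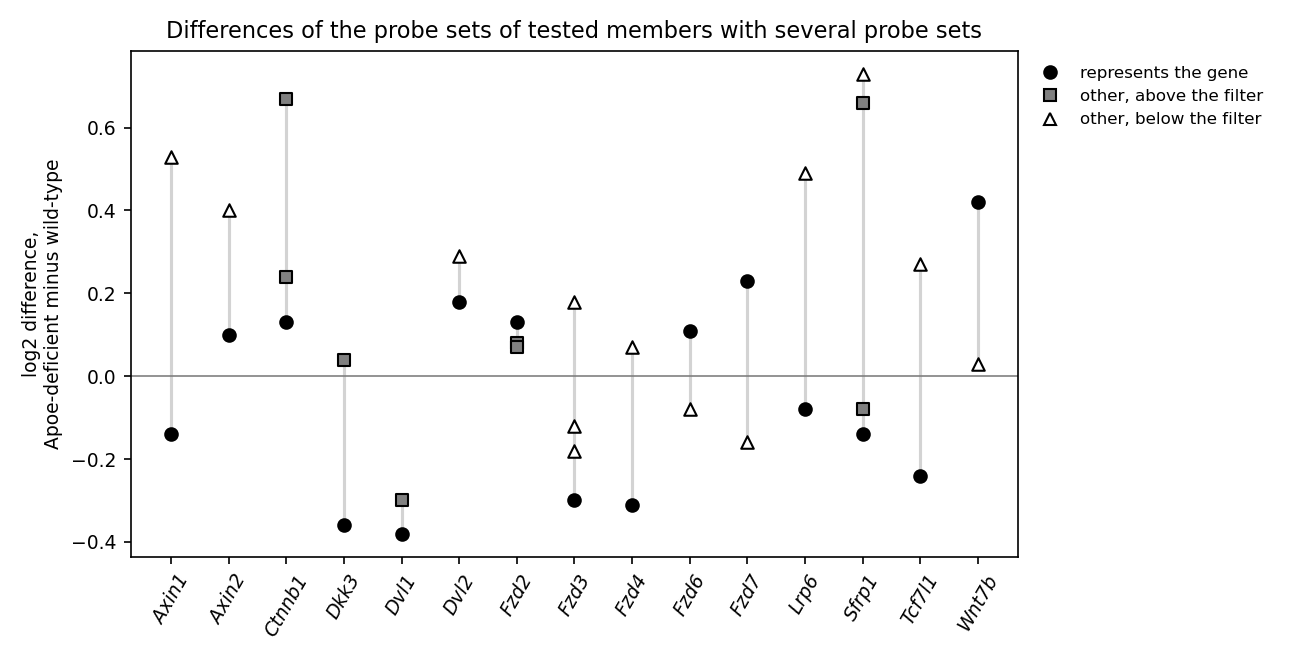
Log2 difference, Apoe-deficient minus wild-type, of each probe set of the 15 tested genes that have several; circles represent the gene in the test, squares are others above the filter and triangles others below it. The probe sets fell on both sides of 0 for 9 of the 15 genes, and for 2 of the 5 genes with several probe sets above the filter, Dkk3 and Sfrp1.

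For the 21 tested genes that did not pass, the intervals bound the difference only at the probe set that represents the gene. The 95% interval lay within 0.5 log2 units of 0 on both sides for 9 of them and within 1 for 19. Dkk1 and Wnt7b were the exceptions to the wider bound. Sfrp1 and Ctnnb1 are among the 9, but other probe sets of theirs above the filter gave 0.66 and 0.67. These genes were not shown to be alike in the 2 genotypes.

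The rest of the pathway was read through a list of agonists, other receptors, inhibitors, the destruction complex, nuclear co-factors, the polarity and calcium arm and transcriptional targets. Of 100 such genes with a probe set 81 were tested, and 3 were higher and 1 was lower, or 4.94%, beside the 1.93% over all genes. At an unadjusted p under 0.05 there were 8 higher and 13 lower, or 25.9% of the 81, beside 20.3% over all genes (7.92% higher and 12.3% lower). The median difference of the 81 was -0.03. The list was chosen with earlier results of these data known. With so few called genes, the share called is no result about the pathway.

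Lgr5, which encodes a receptor for R-spondins, secreted enhancers of Wnt signalling, and is itself a target of beta-catenin, was the lower one. Its wild-type signals were 356.4, 196.9, 190.2, 163.9 and 293.6 and its Apoe-deficient signals 123.3, 91.0, 115.4, 73.3, 79.0 and 170.9. Apoe-deficient replicate 6 overlapped wild-type replicate 4 by deposited signal, and after normalisation the groups did not overlap. The log2 difference was -1.01 (SE 0.22, adjusted p = 0.0339), near that of Dkk2. The call was lost without any 1 of 6 arrays: wild-type replicates 1, 2 and 5, and Apoe-deficient replicates 2, 3 and 4. It was also lost with no filter (adjusted p = 0.0537) and without the 3 low-level arrays (-0.9, adjusted p = 0.264). Apoe-deficient replicates 2, 4 and 5 had signals under the filter signal of about 110, and Lgr5 has 1 probe set.

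The 3 genes that rose are of different kinds, and Dact1 and Gpc3 have 1 probe set each. Dact1, whose protein binds Dishevelled, had wild-type signals of 260.5, 314.3, 317.8, 230.8 and 246.3 and Apoe-deficient signals from 368.4 over 421.4 to 495.1. All Apoe-deficient arrays were above all wild-type arrays, and the difference was 0.61 (SE 0.12, adjusted p = 0.0168). Gpc3, a cell surface proteoglycan that can bind Wnts, had wild-type signals of 428.8, 409.3, 364.8, 412.4 and 365.3 and Apoe-deficient signals from 470.8 over 574.0 to 884.7. Again the groups did not overlap, and the difference was 0.64 (SE 0.15, adjusted p = 0.0391); without the 3 low-level arrays it was 0.42 (adjusted p = 0.236). Ccnd2, which encodes cyclin D2, had wild-type signals of 411.0, 328.4, 420.7, 426.6 and 426.4 and Apoe-deficient signals from 477.0 over 630.3 to 941.0, with no overlap and a difference of 0.67 (SE 0.16, adjusted p = 0.0391). Its 6 other probe sets gave 0.22 to 0.47, and the mean of its probe sets 0.38 (adjusted p = 0.222).

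Single arrays decided most of these calls. Dact1 was no longer called without wild-type replicate 5 (adjusted p = 0.0526), Gpc3 without any of 7 arrays (wild-type replicates 1, 2, 3 and 5, and Apoe-deficient replicates 2, 3 and 4) and Ccnd2 without any of 8 (the same 7, and replicate 6 of the Apoe-deficient group). Where the fit held the control level as a block, 0 of the 81 were called, and the differences were -1.03 for Lgr5, 0.51 for Dact1, 0.40 for Gpc3 and 0.74 for Ccnd2. The macrophage and antibody markers given above differed between the same groups of arrays, and their part in these differences was not tested.

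**Figure D4:**
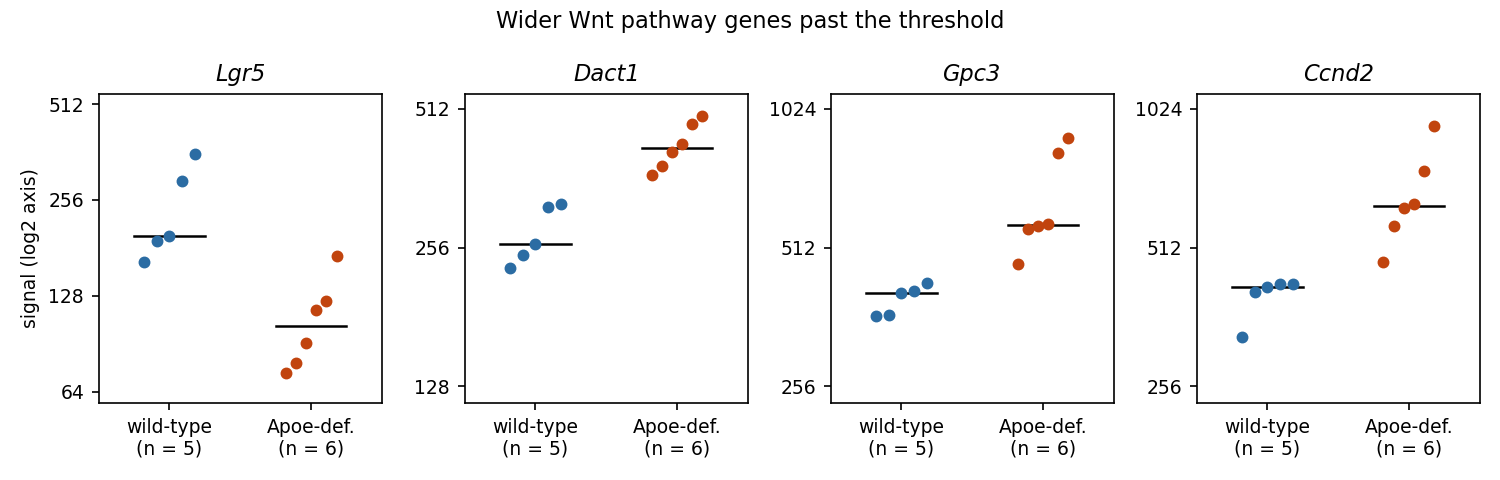
Deposited signal, on a log2 axis, of the 4 wider pathway genes past the threshold, by array; points are arrays (5 wild-type, 6 Apoe-deficient) and lines are group medians. Lgr5 is lower in Apoe-deficient arrays (73.3 to 170.9 against 163.9 to 356.4), and Dact1, Gpc3 and Ccnd2 are higher.

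In the remaining roles 0 genes passed. The gene of smallest p among the agonists and secretion factors was Wls, which carries Wnts to the cell surface, at 0.31 (SE 0.14, adjusted p = 0.244). Its other probe sets, above the filter, gave 0.27 and 0.1. Among the other extracellular inhibitors the gene of smallest p was Apcdd1 at 0.53 (SE 0.39, adjusted p = 0.444). Its other probe sets gave 0.5 and 0.17 above the filter and 0.98 below it. The kinase gene Gsk3a of the destruction complex differed by -0.60 (SE 0.16, adjusted p = 0.0672), with wild-type signals of 1293.1 to 2733.0 and Apoe-deficient signals of 984.1 to 1374.1. With 1 array left out in turn, it passed only without wild-type replicate 4, the lowest wild-type array (-0.73, adjusted p = 0.0247). Without the 3 low-level arrays Gsk3a stood at -0.57 (adjusted p = 0.335). The chromatin remodeller gene Smarca4 stood at -0.32 (SE 0.15, adjusted p = 0.238), and its other probe set, above the filter, at -0.68. Without the 3 low-level arrays the first stood at -0.06. Celsr3, an atypical cadherin of the polarity arm, stood at -0.52 (SE 0.16, adjusted p = 0.103), and at -0.34 without those arrays.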

How the data were processed

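The deposited file holds 1 intensity value per probe set and array on a linear scale, which the authors made with GCOS 1.4, per the submitters' processing notes. The GCOS settings and detection calls were not given in the sources used here. Median signals per array ran from 163 to 188.6, rank correlations between arrays from 0.94 to 0.98, and 0 arrays were identical. The number of arrays limits the precision. Control probe sets (64 of 22690) were left out. A pseudocount of 16 was added before log2, so differences of low genes are understated. Arrays were then quantile normalised. The brightest single-gene probe set past the filter stood for its gene. The test was that of limma 3.58.1 in R 4.3.3 (intensity trend, two-sided, Benjamini-Hochberg over 8433 genes); all adjusted p-values are from limma. Figures were drawn with matplotlib 3.10.9.

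The rule for named genes was: Dkk2, members past the threshold or without overlap, the 12 members of smallest p, the member of smallest p in each role, and of the wider pathway those past the threshold or, in roles with none, the 1 of smallest p. Where a gene's other probe sets are given, those below the filter have no test. Members and lists were chosen with earlier results of these data known. Fits without some arrays kept the same genes and probe sets. The alternatives covered the step between arrays, pseudocount, filter, probe set rule, variance model, array weights, arrays left out, the replicate number and the control level; the code was tested on simulated data.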

Additional observations from a re-analysis of the deposited data

Results flagged for a closer look

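Apoe-deficient replicate 1 stood far above the other 5 arrays of its group for 3 genes. Its log2 value was 9.61 for Wnt6 (next highest 8.79), 9.03 for Fzd2 (next highest 8.32) and 8.02 for Wnt10a (next highest 7.41). The gap to the next highest array, as a share of the range of the group, was 0.81 for Wnt6, 0.67 for Fzd2 and 0.7 for Wnt10a. Chance alone marks about 1 in 20 groups in this way, and 44 groups of arrays (22 genes in both genotypes) were looked at. At that rate some groups are marked by chance alone, so no result is read from these 3.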

How the results depend on the processing

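Over 26 alternatives Dkk2 kept its direction in all and its call in 20. The number of called members stayed at 1 or fell to 0: it was 0 with the control level as a block, without the low control level and within the high level (Dkk2 at -1.07, -0.99 and -1.36), and 0 to 1 when 1 array was left out (Dkk2 at -1.18 to -0.91). Apoe kept its call in all 26. The wider pathway count of 4 became 1 with no filter, 9 with array weights and 0 with the level as a block, without the low level and within the high level, and ran from 0 to 5 when 1 array was left out. Over all genes 163 calls became 668 with array weights, 45 with the level as a block, 36 without the low level, 4 within the high level and 74 to 262 when 1 array was left out. Signs turned, none of them past the threshold, for Fzd7 with the level as a block (-0.06), without the low level (-0.05) and within the high level (-0.24), for Fzd4 (0.34) and Tcf7l1 (0.03) within the high level, and for Sfrp1 with the mean of its probe sets (0.15). The labels' replicate numbers did not pair the arrays (correlations of same-numbered deviations -0.18 to 0.15); with the replicate number as a block, where Apoe-deficient replicate 6 adds nothing, Dkk2 was -1.04 (adjusted p = 0.0177), Apoe -6.78, the members called 1 and the wider genes called 2. Under the filter at the 60th percentile Axin1, Fzd3, Fzd4, Fzd7, Lgr5, Tcf7l1 and Wnt7b were not tested. Probe sets at signals near or under the filter value limit what can be said of most ligands.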
